A study of Mus musculus with 6 samples.

Results

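The genes described here are the amino acid and neurotransmitter transporters of the Slc1, Slc3, Slc6, Slc7, Slc36, Slc38 and Slc43 families. They were chosen by symbol, as protein-coding rows of the count matrix whose symbol starts with 1 of these 7 family prefixes. The rule found 64 genes among 55450, of which 63 belong to the carrier families and 1, Slc7a6os, is a neighbouring gene of the opposite strand that shares only the name. Of the 64, 51 had enough counts to be tested and 13 did not.

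RNA-seq of poly(A) RNA was done on CD31-positive brain endothelial cells, freshly isolated from mice at postnatal day 7, with 3 control and 3 mutant libraries. Both groups carried Cdh5(PAC)-CreERT2, a Cre recombinase that the promoter of the endothelial cadherin gene drives and tamoxifen activates. Tamoxifen was given to all pups on postnatal days 1 and 2, at 100 µg. Control mice were Rbpjflox/WT, with 1 floxed allele of the Notch transcription factor gene Rbpj, and mutant mice were Rbpjflox/flox, with both alleles floxed. The background was a mix of FVB/N and C57BL/6, and both sexes were used. RNA of many mice was pooled in each group: the design text gives 13 to 15 biological samples from more than 3 litters, and the extraction protocol gives more than 20. It is not stated whether libraries of the same group are separate pools, so the p-values rest on a spread between libraries that may be technical.

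The capillary endothelium of the brain seals the space between its cells, so amino acids reach brain tissue through carriers in the cell membranes. Large neutral amino acids enter by exchangers made of a glycoprotein heavy chain and a catalytic light chain, cationic ones by Slc7 uniporters, and sodium-coupled Slc1, Slc6 and Slc38 carriers move glutamate, glutamine, taurine, creatine and other small molecules. Several Slc1 and Slc6 genes are better known from astrocytes and neurons, where they clear transmitters from synapses.

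Libraries held 75744913 to 82092461 counts, at about 4 counts per read pair. Rbpj itself had 53.8 to 54.3 CPM (counts per 1000000 counts of the TMM-scaled library) in control and 45.2 to 47.9 CPM in mutant libraries. Its fall of -0.21 ± 0.042 (log2 fold change and SE) passed edgeR's quasi-likelihood test (adjusted p = 0.0129). Leaving out control library 1 or 2 or mutant library 2 gave 0.0571, 0.0543 and 0.051. The count covers the whole gene, and the deleted exons were not counted apart. On the second principal component mutant library 3 lay at -55.6, apart from the other mutant libraries at 26.2 and 31.2. When it was left out, Slc38a11 and Slc6a8 lost their calls and Slc3a2 and Slc6a13 gained one, among the genes described here. All 12 endothelial markers were detected, and their summed level was 16270 to 16860 CPM in control and 14420 to 15850 CPM in mutant libraries. At an adjusted p under 0.05 in the same edgeR test, 5 of the 12 were lower, against 6.83% of all genes tested. By that threshold 1 of them was higher, against 7.56%. RNA of other cells was present in both groups, with every marker that could be matched detected. Summed levels in control and mutant libraries were 459 to 481 and 249 to 379 CPM for 12 astrocyte markers, and 879 to 994 and 575 to 760 CPM for 11 fibroblast markers. For 13 microglia markers they were 1752 to 1797 and 1383 to 1461 CPM, and for 8 choroid plexus and ependymal markers 5090 to 5538 and 3448 to 4484 CPM. Erythroid markers summed to 6975 to 7180 and 4665 to 4961 CPM, and pericyte and smooth muscle markers to 4084 to 4195 and 4185 to 4277 CPM. Neuron markers summed to 213.9 to 222.6 and 227.4 to 271.8 CPM and oligodendrocyte lineage markers to 231.4 to 242.5 and 247.5 to 270.2 CPM, both higher in each mutant than in each control library. By the threshold given above, 4 of 13 pericyte and smooth muscle markers were higher and 5 lower. Lower were also 2 of 12 astrocyte, 4 of 11 fibroblast and 8 of 13 microglia markers, against 6.83% of all genes tested. So were 1 of 8 choroid plexus and ependymal and 5 of 7 tested erythroid markers. No astrocyte, fibroblast, microglia, choroid plexus, ependymal or erythroid marker was higher, against 7.56%. Of 12 neuron markers none was higher and 1 was lower, and of 9 oligodendrocyte lineage markers 3 were higher and 1 lower. The part of these other cells in the results below was not tested. In such bulk libraries fewer cells of a type and less RNA per cell cannot be told apart.

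The most abundant carriers of brain endothelium fell or were not called, and the carriers that rose were all less abundant ones. Taurine, glutamine and small neutral amino acid carriers (Slc6a6, Slc38a5, Slc38a2) and the light chain Slc7a8 were lower in the mutant, each by 1.29-fold to 1.53-fold. The glutamate carrier Slc1a1, the light chain Slc7a7 and the neutral amino acid carrier Slc43a1 rose by 1.65-fold, 1.56-fold and 1.96-fold. Slc7a5, the light chain of the main large neutral amino acid exchanger and the most abundant member, had almost the same level in both groups. Genes are called higher or lower here at an adjusted p under 0.05 in the edgeR quasi-likelihood test over all 19549 genes tested. A gene that was not called is not shown to be unchanged. By this rule 6 of the 51 tested members (11.8%) were higher, against 7.56% of all genes tested, and 9 (17.6%) were lower, against 6.83%. The median log2 fold change was -0.16 over the tested members and -0.01 over all genes tested. In the 3 against 3 libraries, the groups did not overlap for 8 members that were higher (15.7%, against 16.8% of all genes tested) and 19 that were lower (37.3%, against 17.3%). Over both directions the groups did not overlap for 34.1% of all genes tested. No called member changed by 2-fold, 5 changed by 1.5-fold or more and 10 by less. With DESeq2 the same 6 were higher, against 9.8% of all genes, and 14 lower, against 8.82%.

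**Figure D1:**
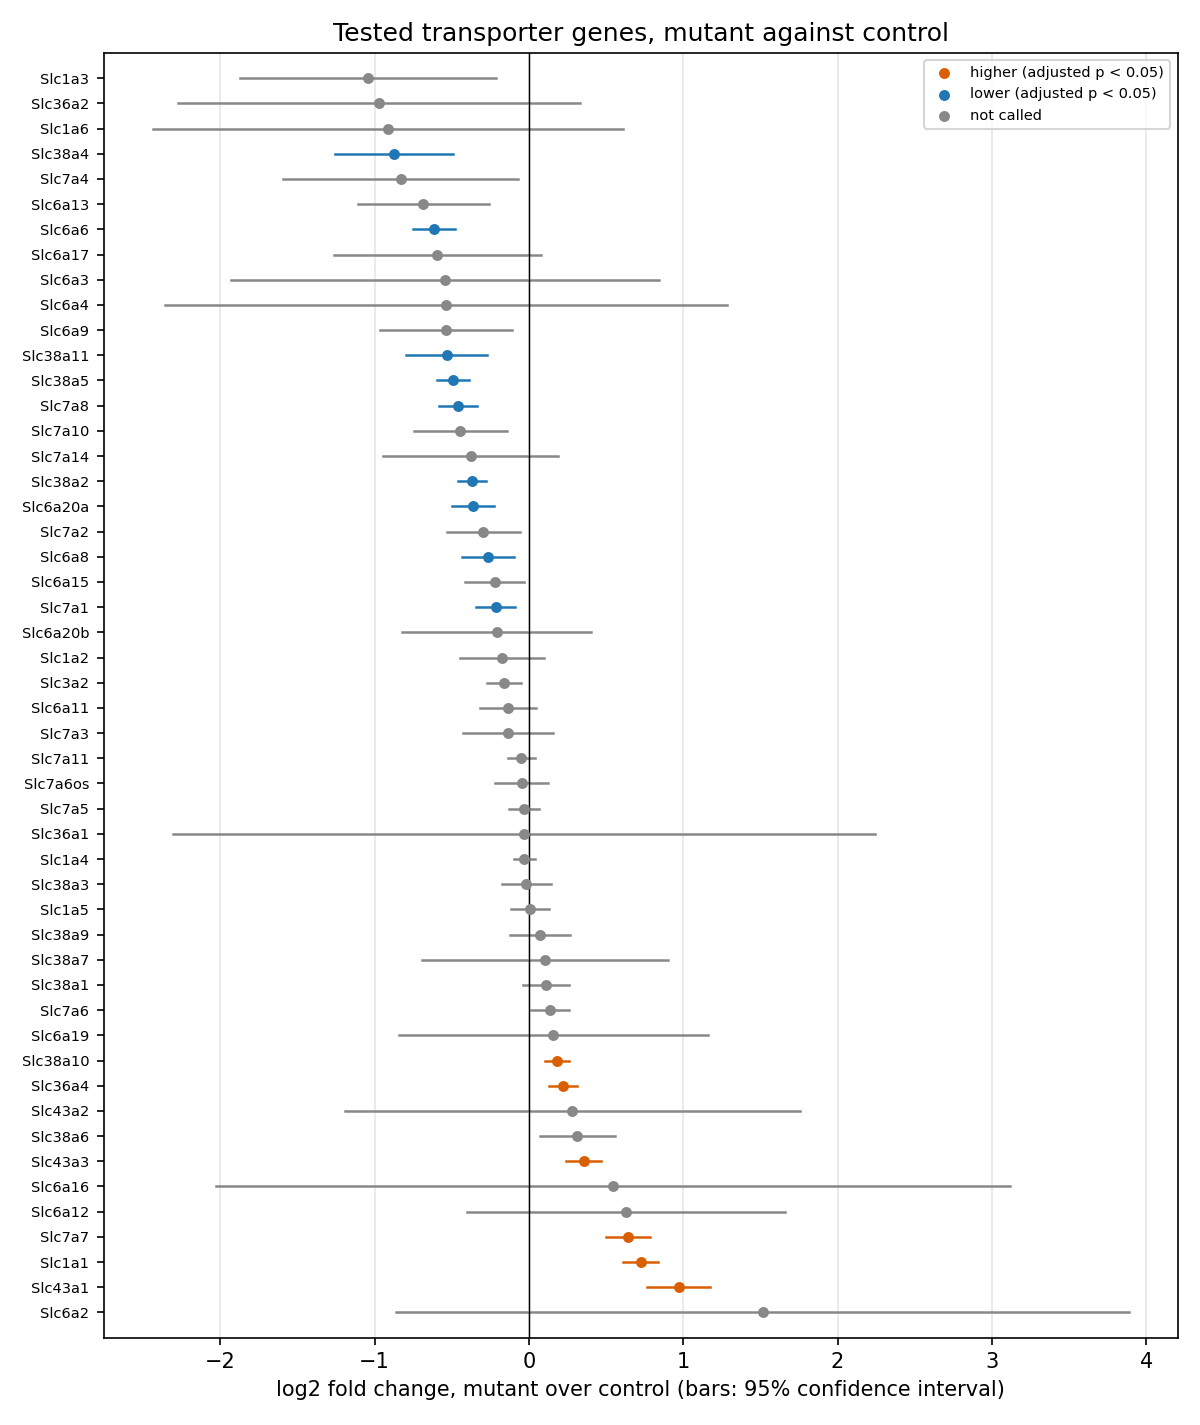
Log2 fold change, mutant over control, of tested genes of the 7 families (points) with their 95% confidence intervals (bars), ordered by value; Slc7a6os is included by its symbol. The 9 genes called lower are blue and the 6 called higher are orange, and wide bars belong to genes of low or uneven counts.

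The level of expression was compared between genes per kilobase of the merged exons of each gene. In control libraries the order was led by Slc7a5 at 1127 CPM per kilobase, with 1103 to 1155 over the libraries. Slc38a5 followed at 529.7 and the heavy chain gene Slc3a2 at 435.9 CPM per kilobase. These 3 did not overlap one another in any control library. Slc1a4, an exchanger of small neutral amino acids, had 223.7, the arginine carrier gene Slc7a1 209.2 and Slc6a6 207.6 CPM per kilobase. The ranges of Slc7a1 and Slc6a6 overlapped, as did those of the next pair, Slc38a2 at 171.2 and Slc38a3 at 166.5. Slc7a8 was ninth in order at 78.6, and Slc38a10 came next at 22.7 CPM per kilobase. The first 9 genes held 93.4% of the summed per-length level of all members in control and 92.2% in mutant libraries. Of these 9, 5 were called lower, against 6.83% of all genes tested, none was called higher, against 7.56%, and 4 were not called. With only genes at 1 CPM or more in every library of a group kept, 9.34% of all genes were lower. Among the 5, Slc7a1 lost its call in 6 of the 14 alternatives.

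In mutant libraries Slc38a5, at 367 to 396 CPM per kilobase, overlapped Slc3a2, at 371 to 413. The summed per-length level of the members was 3294, 3405 and 3414 in control and 2911, 2906 and 3149 CPM per kilobase in mutant libraries. Mutant library 3 lay nearest to the control libraries in this sum.

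**Figure D2:**
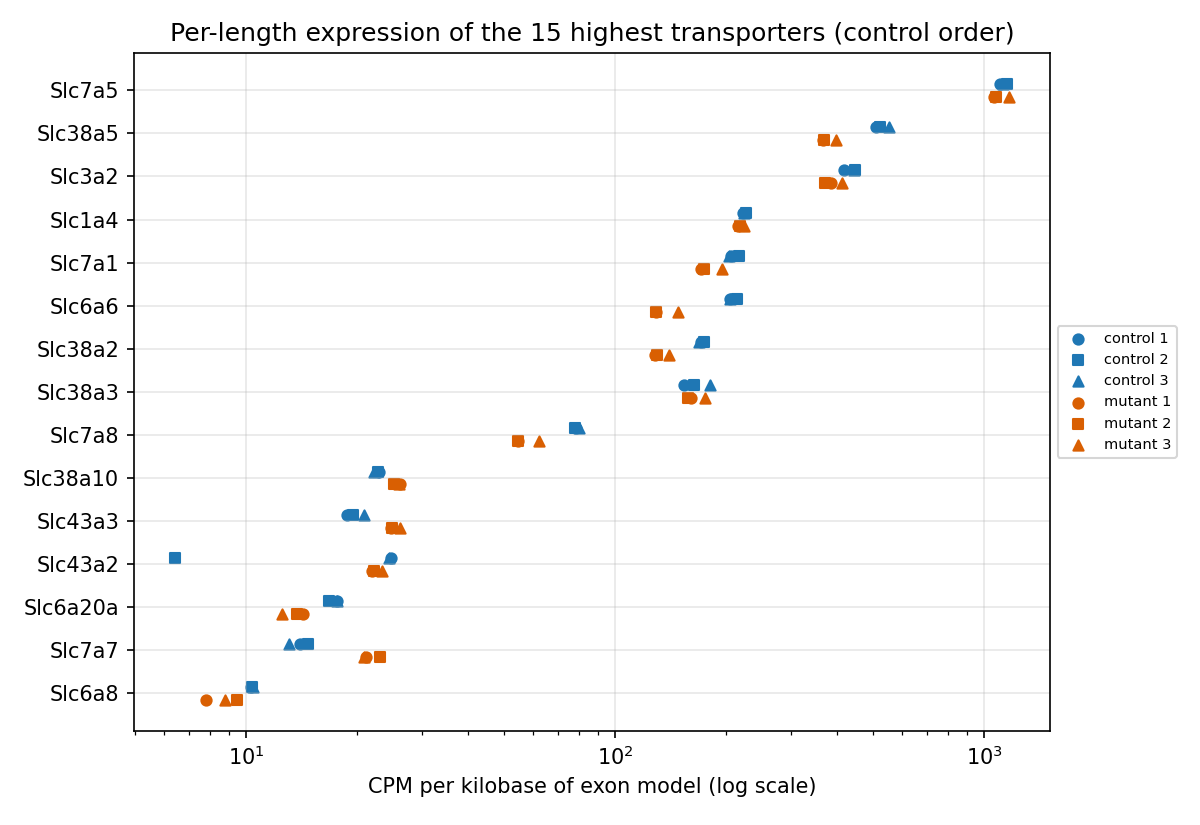
Expression per kilobase of merged exons (log scale) of the 15 members with the highest control level, in each of 3 control (blue) and 3 mutant (orange) libraries. Slc7a5 stands above all others in both groups, the mutant points of Slc38a5, Slc6a6, Slc38a2 and Slc7a8 lie below the control points, and Slc43a2 in control library 2 lies far from the other 5 libraries.

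Among the heteromeric exchangers, the leading chains were not called and 2 less abundant light chains moved in opposite directions. The light chain gene Slc7a5 (chromosome 8, 121881150 to 121907694, minus strand, GRCm38 as for all coordinates) carries leucine, phenylalanine, tryptophan and the drug L-DOPA across the barrier. It had 4090, 4282 and 4165 CPM in control and 3952, 3986 and 4318 CPM in mutant libraries, so the groups overlapped. The log2 fold change was -0.03, with a 95% confidence interval of -0.13 to 0.06 (adjusted p = 0.689). Slc3a2 (chromosome 19, 8706882 to 8723369), whose product brings the light chains to the cell surface, had 1473, 1576 and 1567 CPM in control and 1357, 1309 and 1456 CPM in mutant libraries. Each mutant library was below each control library, and the difference of -0.16 ± 0.048 (SE) missed the threshold (adjusted p = 0.0634). Without mutant library 3 it was -0.20 with an adjusted p of 0.0182, and over all 14 alternatives that p ran from 0.0182 to 0.218.

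Slc7a8, a second neutral amino acid light chain that accepts a wider range of substrates, fell by 1.37-fold. It had 391.6, 389.7 and 398.9 CPM in control and 273.9, 273.7 and 311.3 CPM in mutant libraries (log2 fold change -0.46 ± 0.054, adjusted p = 0.00122). Slc7a7 (chromosome 14, 54369442 to 54417780), a light chain that exports cationic in exchange for neutral amino acids, rose by 1.56-fold. Control libraries had 46.3, 48.9 and 43.4 CPM and mutant libraries 70.0, 76.7 and 69.4 CPM (log2 fold change 0.64 ± 0.061, adjusted p = 0.000455). Slc7a7 is also a gene of macrophages. Of the 13 microglia and macrophage markers 8 were lower, against 6.83% of all genes tested, and none was higher, against 7.56%. What these cells add to the Slc7a7 level was not tested. Its exons overlap those of Oxa1l on the other strand by 232 bases, and Oxa1l was at 95.1 to 101.5 CPM in control and 88.9 to 93.3 CPM in mutant libraries.

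Slc7a6, a related exporter, was at 41.8 ± 0.59 CPM in the control and at 45.9 ± 2.5 CPM in the mutant libraries (SD, n = 3), with no overlap and an adjusted p of 0.146. The cystine and glutamate exchanger gene Slc7a11 had 135.0 ± 3.0 and 130.5 ± 4.1 CPM (interval of the log2 fold change -0.14 to 0.04, adjusted p = 0.486). Slc7a10, a D-serine and glycine exchanger of astrocytes, had 8.27 ± 0.66 and 6.07 ± 0.81 CPM with no overlap (adjusted p = 0.0607, and 0.0211 to 0.168 over the alternatives). Mutant libraries 1, 2 and 3 had 6.47, 6.60 and 5.14 CPM of Slc7a10, and their summed astrocyte markers were 379, 249 and 343 CPM. A link between them was not tested. Per length, the 6 light chains that use Slc3a2 summed to 2.79 to 2.92 times the level of Slc3a2 in control and 3.03 to 3.17 times in mutant libraries. Slc7a5 made up 90.6% to 90.9% of that sum in control and 91.4% to 91.8% in mutant libraries.

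Slc7a1, the main carrier of arginine and lysine in brain endothelium, had 2385, 2497 and 2354 CPM in control and 1972, 2012 and 2254 CPM in mutant libraries. The groups did not overlap, and mutant library 3 was the closest to control. The log2 fold change was -0.21 ± 0.054 with an adjusted p of 0.0387, which depended on the set of libraries. That p was 0.113, 0.149 and 0.0757 without control library 1, 2 or 3, and 0.117 and 0.14 without mutant library 1 or 2. The other 4 cationic branch genes (Slc7a2, Slc7a3, Slc7a4 and Slc7a14) reached at most 15.2 CPM in any library and were not called.

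Glutamine and small neutral amino acid carriers of the Slc38 family were lower where they were called, except for 1 member of the intracellular branch. Slc38a5 (chromosome X, 8271133 to 8280179, plus strand), which moves glutamine, histidine and serine together with sodium against protons, had 1145, 1174 and 1242 CPM in control and 821.5, 823.9 and 887.0 CPM in mutant libraries. Mutant libraries were 1.41-fold lower (log2 fold change -0.49 ± 0.045, adjusted p = 0.00038). Slc38a3, with overlapping substrates, had 813.7, 866.0 and 956.4 CPM in control and 849.5, 830.5 and 926.4 CPM in mutant libraries, which overlapped. Its log2 fold change was -0.02, with a 95% confidence interval of -0.18 to 0.14. The interval of Slc38a5 ran from -0.60 to -0.39, and the difference between the genes was not tested.

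Slc38a2, a sodium-coupled importer of alanine, serine and glutamine, had 1509, 1541 and 1491 CPM in control and 1133, 1147 and 1234 CPM in mutant libraries. It fell by 0.37 ± 0.040 on the log2 scale (adjusted p = 0.000781). Slc38a4, which also takes up cationic amino acids, was scarce and fell 1.83-fold, from 2.93, 3.09 and 2.49 CPM to 1.67, 1.57 and 1.40 CPM (log2 fold change -0.87 ± 0.163, adjusted p = 0.0109). Slc38a1, the third system A gene, was at 66.9 to 77.8 CPM in control and 74.5 to 82.02 CPM in mutant libraries and was not called (interval of the log2 fold change -0.04 to 0.26).

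Slc38a10, a widely expressed carrier, rose slightly from 146.9, 146.7 and 143.1 CPM to 167.6, 161.7 and 167.2 CPM (log2 fold change 0.18 ± 0.033, adjusted p = 0.00895). Slc38a11, a less studied member, fell from 15.2, 18.1 and 15.7 CPM to 12.5, 9.94 and 11.4 CPM (log2 fold change -0.53 ± 0.112, adjusted p = 0.0185). Its adjusted p was 0.0669, 0.0562 and 0.0518 without control library 2, mutant library 2 or mutant library 3. Slc38a9, the lysosomal arginine sensor that signals to mTORC1, was at 12.7 to 14.9 CPM in control and 14.7 to 15.2 CPM in mutant libraries and was not called.

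Of the Slc1 genes, only Slc1a1 was called. Slc1a1 (chromosome 19, 28835049 to 28913960, plus strand) encodes a high-affinity carrier of glutamate, aspartate and cysteine. It rose by 1.65-fold, from 72.1, 73.6 and 74.1 CPM in control to 122.0, 113.5 and 127.7 CPM in mutant libraries (log2 fold change 0.72 ± 0.049, adjusted p = 9.11e-05). All 3 mutant libraries were far above the control range. Its exons overlap those of the antisense gene 4430402I18Rik by 2631 of 8257 bases, and that gene was at 1.70 to 2.14 CPM in control and 1.98 to 2.18 CPM in mutant libraries.

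Slc1a4 had 870.0, 887.7 and 877.5 CPM in control and 846.7, 854.8 and 879.8 CPM in mutant libraries, with an interval of -0.10 to 0.04 for the log2 fold change. Slc1a5, the related glutamine exchanger, had 24.5 to 25.2 CPM in control and 24.5 to 25.6 CPM in mutant libraries. The astrocyte glutamate carrier Slc1a3 had the most negative value of all tested members, but not a call. Its level was 89.5, 45.7 and 86.7 CPM in control and 40.0, 39.1 and 28.5 CPM in mutant libraries. The log2 fold change was -1.04 ± 0.318 (adjusted p = 0.113), and without control library 2 it was -1.29 with an adjusted p of 0.0106. Over the 14 alternatives that p ran from 0.00702 with DESeq2 to 0.266. The summed astrocyte markers were 481, 464 and 459 CPM in control libraries 1, 2 and 3. The cause of the low Slc1a3 value in control library 2 was not tested. Slc1a2, the other main astrocyte glutamate carrier, was at 46.8 to 59.2 CPM in control and 42.1 to 52.0 CPM in mutant libraries, which overlapped.

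Among Slc6 genes the taurine carrier was the one with high expression and a large fall. Slc6a6 (chromosome 6, 91684053 to 91759066, plus strand) takes up taurine and beta-alanine with sodium and chloride. It had 1731, 1805 and 1730 CPM in control and 1093, 1091 and 1254 CPM in mutant libraries, a 1.53-fold fall (log2 fold change -0.62 ± 0.057, adjusted p = 0.000405). All mutant libraries were below all control libraries, and mutant library 3 was the closest. Slc6a8, the creatine carrier, had 53.9, 54.2 and 54.6 CPM in control and 40.5, 49.3 and 45.7 CPM in mutant libraries (log2 fold change -0.26 ± 0.072, adjusted p = 0.049). Its call was close to the threshold and was lost without control library 1, 2 or 3 (adjusted p = 0.129, 0.134 and 0.122) and without mutant library 1 or 3 (0.0817 and 0.107).

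The proline and pipecolate carrier Slc6a20a fell from 72.3, 68.4 and 72.2 CPM to 58.5, 56.0 and 51.0 CPM (log2 fold change -0.36 ± 0.058, adjusted p = 0.00544). It has a close copy next to it, Slc6a20b, and how reads were split between them is not stated. Slc6a20b had at most 4.22 CPM in any library. Slc6a20a is also expressed in meninges. Of the 11 fibroblast and meninges markers 4 fell, against 6.83% of all genes tested, and none rose, against 7.56%. The part of meninges in the fall of Slc6a20a was not tested. Slc6a13, a GABA and taurine carrier of meninges and barrier vessels, had 28.6, 26.0 and 25.5 CPM in control and 19.4, 18.3 and 12.2 CPM in mutant libraries. Its log2 fold change of -0.68 ± 0.176 missed the threshold (adjusted p = 0.0514). The adjusted p was 0.0481 without mutant library 1, 0.00924 without mutant library 3 and up to 0.15 over the alternatives. In both lists of values the lowest library was mutant library 3. That library also had the lowest sums of fibroblast (575 CPM), choroid plexus and ependymal (3448 CPM), microglia (1383 CPM) and erythroid markers (4665 CPM). The lowest astrocyte sum was in mutant library 2 (249 CPM). The match is thus not particular to fibroblast markers, and a link was not tested.

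The GABA carrier Slc6a11, known from astrocytes, and the glycine carrier Slc6a9 had lower values in each mutant than in each control library and were not called (adjusted p = 0.326 and 0.105). The monoamine carriers for noradrenaline (Slc6a2), dopamine (Slc6a3) and serotonin (Slc6a4) passed the filter with at most 0.648 CPM in any library, at which depth no difference of moderate size was detectable.

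**Figure D3:**
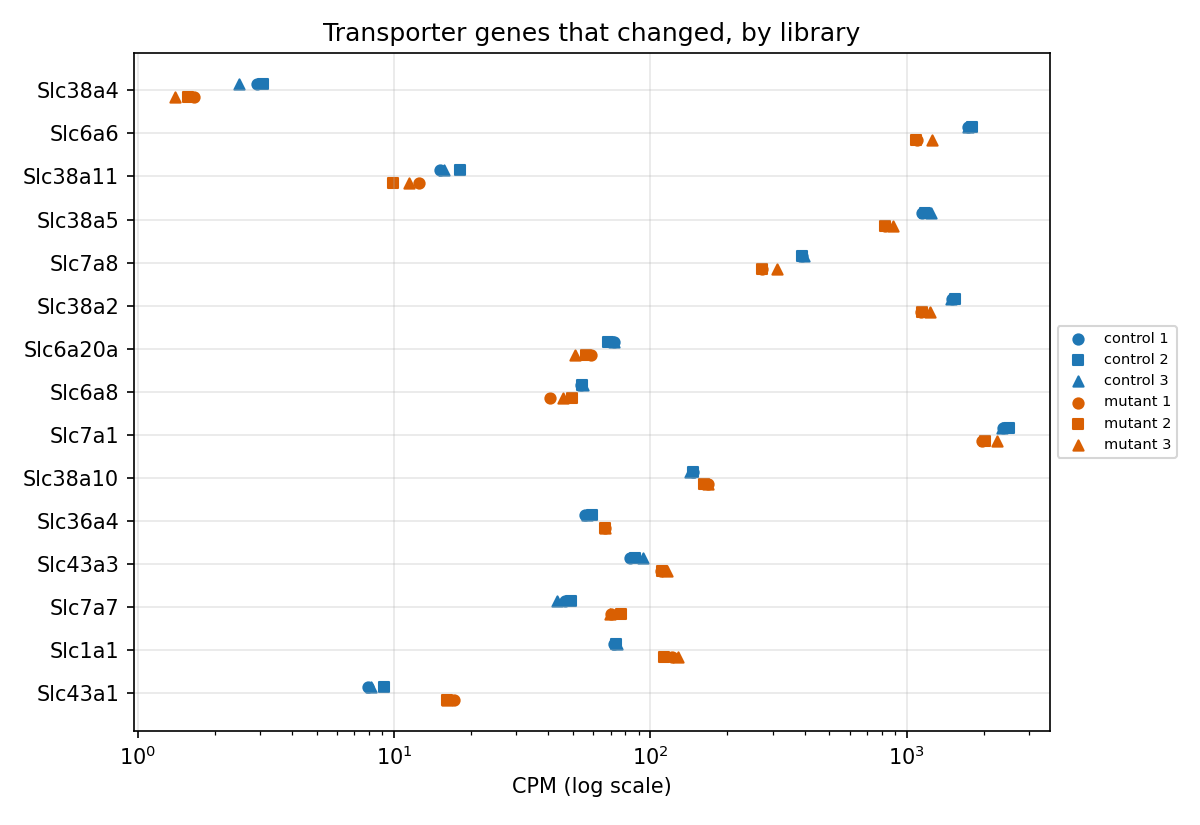
Expression (CPM, log scale) of the 15 called members in each of 3 control (blue) and 3 mutant (orange) libraries, ordered from the largest fall to the largest rise. The groups do not overlap for any of the 15, which were called from these same libraries, so this adds no support to the calls. Over all genes tested the groups do not overlap for 34.1%. For Slc6a6, Slc7a8, Slc38a2 and Slc7a1 mutant library 3 (triangle) lies closest to the control points.

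In the Slc43 family 2 of 3 genes were called higher, and in the Slc36 family 1 of 3 tested genes, against 7.56% of all genes tested. Families of 3 genes are too small for such a share to be compared. Slc43a1 (chromosome 2, 84838850 to 84863594, plus strand), a facilitated carrier of branched-chain amino acids, had the largest change of the called members. Its level was 7.90, 9.17 and 8.12 CPM in control and 17.2, 16.1 and 16.1 CPM in mutant libraries (log2 fold change 0.97 ± 0.087, adjusted p = 0.000347). Slc43a3 (chromosome 2, 84936579 to 84958509), its neighbour on the same strand and a carrier of purine nucleobases, rose from 83.7, 87.1 and 93.4 CPM to 110.6, 110.8 and 116.4 CPM (log2 fold change 0.35 ± 0.050, adjusted p = 0.00289). Slc36a4, a high-affinity carrier of proline and tryptophan, rose from 55.7, 59.2 and 56.5 CPM to 66.3, 66.5 and 66.9 CPM (log2 fold change 0.22 ± 0.040, adjusted p = 0.00944).

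For 2 members of these families, the libraries of a group did not agree. Slc43a2, another facilitated neutral amino acid carrier, had 247.7, 64.6 and 245.1 CPM in control and 219.9, 222.6 and 235.1 CPM in mutant libraries. Its log2 fold change was 0.28 with control library 2 and -0.12 without it (adjusted p = 0.817 and 0.18). Slc36a1, which exports small amino acids from lysosomes, had 11.5, 51.9 and 50.9 CPM in control and 48.8, 11.5 and 51.4 CPM in mutant libraries. Low values thus stood in 1 library of each group, and no direction can be given. These were the only members at 5 CPM or more that differed by 2-fold within a group, 2 of 39 (5.13%), against 588 of 11738 genes at that level (5.01%). Both were singled out after their values were seen, and the cause was not tested.

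**Figure D4:**
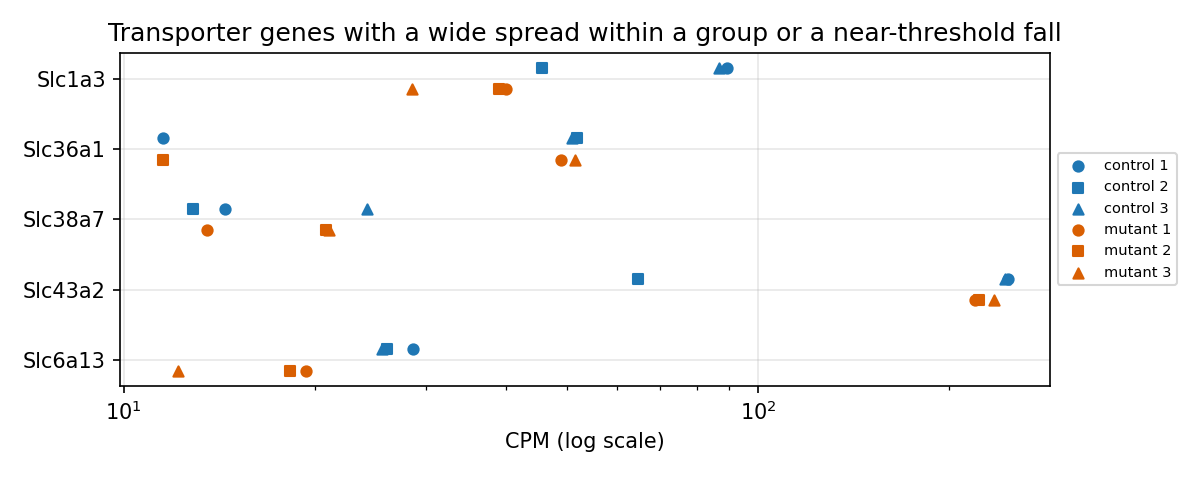
Expression (CPM, log scale) in each of 3 control (blue) and 3 mutant (orange) libraries for 5 members picked after their values were seen. Slc36a1 is low in control library 1 and mutant library 2, Slc43a2 is low in control library 2, and Slc1a3 and Slc6a13 have mutant points below all control points.

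Of the 13 members that were not tested, 5 (Slc36a3, Slc6a18, Slc7a12, Slc7a13 and Slc7a15) had a count of 0 in all 6 libraries. A count of 0 allows up to 3 read pairs, or 0.146 to 0.158 CPM in these libraries, for counting error only. The other 8, among them the second heavy chain gene Slc3a1 and its light chain Slc7a9, had at most 0.231 CPM in any library. A further 6 members were tested but stayed under 1 CPM in every library.

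Promoter sequences from RefSeq (GRCm38.p6) were matched for 46 of the 64 members, 12 of them called. The 250 bases before each start were searched on both strands for TGGGAA, the core of the site that Rbpj binds, and for TGATGNAA, the core of the amino acid response element bound by Atf4 with its partners. The first motif stood in 21.6% of all 32851 windows and in 16 of the 67 windows of members. Those windows belonged to 13 of the 46 members, of which Slc38a5, Slc43a1 and Slc7a7 were called. The second stood in 3.45% of all windows and in 4 of the 67 windows of members. Those belonged to 3 of the 46 members, of which Slc7a7 was called. Members with several listed starts had several windows. A match describes letters only and is not a bound site. The 3 windows below are shown because they belong to called members and hold a match. They are written 5′ to 3′ on the strand of the gene, with the match in capitals.
Slc43a1, higher in the mutant, chr2:84840073-84840322, plus strand: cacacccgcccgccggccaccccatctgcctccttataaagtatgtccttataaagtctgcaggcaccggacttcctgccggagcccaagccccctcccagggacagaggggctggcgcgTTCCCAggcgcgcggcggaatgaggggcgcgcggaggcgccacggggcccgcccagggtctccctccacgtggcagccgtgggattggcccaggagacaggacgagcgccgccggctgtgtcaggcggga
Slc38a5, lower in the mutant, chrX:8271131-8271380, plus strand: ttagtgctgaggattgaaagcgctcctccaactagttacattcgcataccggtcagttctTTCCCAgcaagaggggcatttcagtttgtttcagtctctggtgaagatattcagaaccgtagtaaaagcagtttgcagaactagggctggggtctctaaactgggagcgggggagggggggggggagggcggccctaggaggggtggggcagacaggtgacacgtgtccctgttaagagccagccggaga
Slc7a7, higher in the mutant, 1 of its 5 listed starts, chr14:54417703-54417952, minus strand: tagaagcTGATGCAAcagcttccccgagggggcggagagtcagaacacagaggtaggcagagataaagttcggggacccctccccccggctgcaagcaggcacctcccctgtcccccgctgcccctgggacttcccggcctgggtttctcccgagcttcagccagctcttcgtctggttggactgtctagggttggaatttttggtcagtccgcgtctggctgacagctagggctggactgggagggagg

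The TGGGAA core lies on the reverse strand in the first pair of windows, so it is read there as TTCCCA, 130 bases before the Slc43a1 start and 190 before the Slc38a5 start. The same core thus stands near 1 member that rose and 1 that fell. These distances are to starts listed by RefSeq. In GENCODE M21 the Slc43a1 gene begins at 84838850 and the Slc38a5 gene at 8271133. The Slc43a1 window thus lies inside the annotated gene, and the Slc38a5 window almost wholly so. In the Slc7a7 window the response element core begins 243 bases before the start. A further Slc7a7 start has TGGGAA 210 bases before it, in a window that lies inside the gene in GENCODE M21. The most distant listed start also has a response element core, 141 bases before it, but lies beyond the end of the gene in GENCODE M21, and its first bases were not found in the transcripts of the gene there.

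Genes that handle amino acids outside these families were read from 4 lists. Of 37 tested genes of the amino acid response, which Atf4 drives when amino acids run short, 8 were higher (21.6%, against 7.56% of all genes tested) and 4 lower (10.8%, against 6.83%), with a median log2 fold change of 0.02. The largest rises were in Stc2, a secreted glycoprotein gene, from 3.63 ± 0.27 to 10.5 ± 1.4 CPM, and Trib3, a pseudokinase that restrains Atf4, from 2.49 ± 0.49 to 6.66 ± 0.52 CPM (SD, n = 3). Their log2 fold changes were 1.53 ± 0.130 and 1.42 ± 0.162 (adjusted p = 0.000262 and 0.00108). Chac1, which degrades glutathione, rose by 0.93 ± 0.165, and Eif4ebp1, a brake on translation, by 0.77 ± 0.062 on the log2 scale (adjusted p = 0.00871 and 0.000197). The 4 lower genes, named after their values were seen, were Ddit4 at -0.29, Phgdh at -0.29, Psph at -0.28 and Asns at -0.24 (adjusted p = 0.00528, 0.0288, 0.0475 and 0.0304). Of these, Asns and Psph lost their calls whichever of the 6 libraries was left out, with adjusted p of 0.0563 to 0.115 and 0.065 to 0.145. Phgdh lost its call without any 1 library other than control library 3 (adjusted p = 0.052 to 0.103). Psat1, which acts between Phgdh and Psph in serine synthesis, was not called (-0.12, adjusted p = 0.171).

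Of 37 tested genes of amino acid sensing and mTORC1, none was higher and 2 were lower (5.41%, against 6.83% of all genes tested). Castor1, a cytosolic arginine sensor that inhibits mTORC1 in the absence of arginine, fell from 36.1, 38.7 and 39.0 CPM to 24.04, 22.5 and 23.7 CPM (log2 fold change -0.70 ± 0.058, adjusted p = 0.000235). Deptor, an inhibitor in the mTOR complex, fell by 0.53 ± 0.117 (adjusted p = 0.0225). For Deptor that p was 0.0852 and 0.0683 without control library 2 or 3, and 0.06, 0.0518 and 0.0663 without mutant library 1, 2 or 3.

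In amino acid metabolism 6 of 53 genes were higher (11.3%, against 7.56% of all genes tested) and 5 lower (9.43%, against 6.83%). The largest rises were in Arg1 and Odc1. Arg1, which splits arginine into urea and ornithine, was scarce and rose from 0.54 ± 0.19 to 2.36 ± 0.13 CPM (log2 fold change 2.13 ± 0.294, adjusted p = 0.00275). Odc1, which turns ornithine into the polyamine putrescine, rose from 157.9, 158.0 and 167.2 CPM to 382.8, 373.1 and 385.4 CPM, a 2.36-fold change (log2 fold change 1.24 ± 0.036, adjusted p = 2.95e-06). Ass1, which rebuilds arginine from citrulline, fell by 0.56 ± 0.097, and the glutathione-degrading enzyme gene Ggt1 rose by 0.59 ± 0.091 (adjusted p = 0.00764 and 0.00471). The Ass1 levels were lowest in mutant library 3, at 14.3 CPM against 17.7 and 18.1 CPM.

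Among 21 tested carriers of amino acids and peptides outside the 7 families, 3 were higher (14.3%, against 7.56% of all genes tested) and 2 lower (9.52%, against 6.83%). The lysosomal peptide carrier Slc15a3 rose by 0.61 ± 0.149, and Slc25a13, a mitochondrial aspartate and glutamate carrier, by 0.50 ± 0.1001 (adjusted p = 0.0365 and 0.0152). The peptide carrier Slc15a2 fell by 0.49 ± 0.095, and Mfsd12, a lysosomal cysteine importer, by 0.22 ± 0.052 (adjusted p = 0.0128 and 0.031). These calls depended on single libraries. The adjusted p of Slc15a3 was 0.121, 0.112, 0.111 and 0.0929 when control library 2 or 3 or mutant library 1 or 2 was left out. For Slc25a13 it was 0.0531, 0.0542 and 0.0538 when control library 1 or 3 or mutant library 1 was left out, and for Slc15a2 it was 0.0534 without control library 1. For Mfsd12 it lay between 0.059 and 0.108 without any 1 of the 6 libraries.

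**Figure D5:**
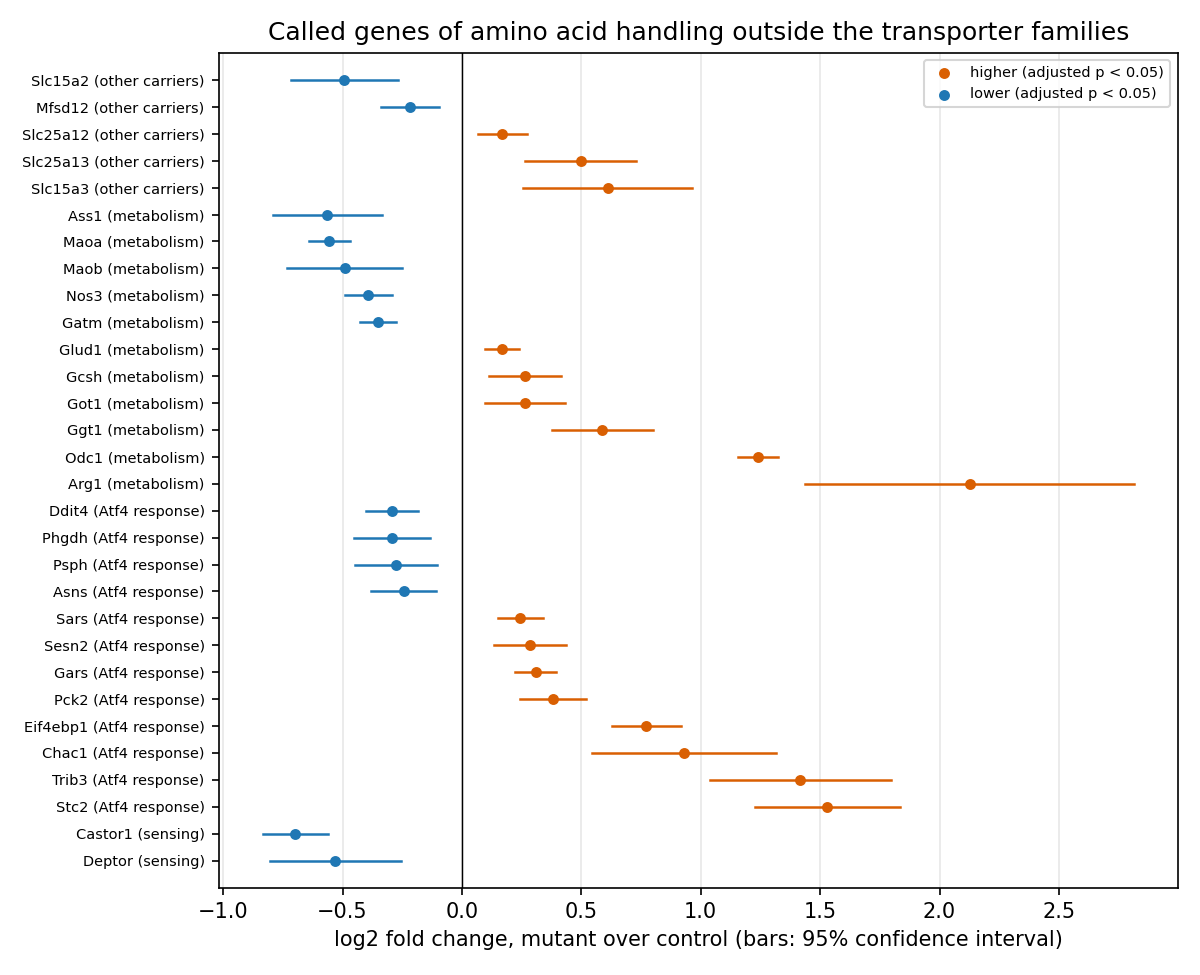
Log2 fold change, mutant over control, of the called genes of the 4 further lists (points) with 95% confidence intervals (bars); the list of each gene stands in parentheses. Arg1, Stc2, Trib3 and Odc1 lie furthest to the right, and the called genes of every list but that of sensing lie on both sides of 0.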

How the data were processed

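The authors deposited estimated counts per gene as whole numbers, so rounding changed nothing. The submitters' processing notes name the build GRCm39 and the tools StringTie 1.3.4, HISAT2, edgeR, cutadapt 1.10 and FastQC 0.10.1. Parameters, annotation and strand use: not given in the sources used here. Each of the 55450 identifiers matches GENCODE M21 (GRCm38), from which symbols, coordinates and merged exon lengths were taken.

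Low counts pile up at 4 (1118 to 1190 genes per library, against 171 to 189 at 5), so about 4 counts stand for 1 read pair. Genes were kept with filterByExpr, scaled by TMM and fitted with edgeR 4.0.16 in R 4.3.3 (robust quasi-likelihood, group only), with Benjamini-Hochberg adjustment over 19549 genes. The SE is the log2 fold change over the square root of F. The test had been planned for counts and was tested on simulated data. CPM were computed from the deposited counts. The 14 alternatives include DESeq2 1.42.0 and limma 3.58.1 (voom).

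No pair of libraries of 1 group agreed within sampling noise (median chi-square 1.81 to 2.62 times its expectation), so none was merged as a duplicate. This does not show that they are separate biological samples. Members and lists were chosen with earlier results of these data known. Named were all called members, the 10 with the highest control level per length, heavy and light chains that were tested, and up to 4 called genes per further list; other members named were singled out after their values were seen. The values of 1 tested member, which was not called, are not reported here; it is included in the counts and medians.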

Additional observations from a re-analysis of the deposited data

How the results depend on the processing

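Of the 15 called members, 12 were called under all 14 alternatives, and Slc6a8, Slc7a1 and Slc38a11 were not. The count of higher members was 6 in every alternative, against 5.18% to 10.8% of all genes tested there. Lower members numbered 7 to 9 with 1 library left out, against 4% to 5.57% of all genes. They numbered 8 to 10 with other scaling, filters, limma-voom, counts divided by 4 or the replicate block, against 4.43% to 9.34%. With DESeq2 there were 14, against 8.82%, and those added were Slc1a3, Slc6a13, Slc6a17, Slc6a9 and Slc7a10. Between 43 and 59 members were tested, depending on the filter. The median log2 fold change of the tested members stayed between -0.20 and -0.12. The replicate block gave 6 higher and 8 lower members, against 5.66% and 4.87% of all genes tested. It lost Slc38a11, Slc6a8 and Slc7a1 and added Slc6a13 and Slc6a17. Replicate numbers are not said to mark a shared litter or day. Deviations of same-numbered libraries correlated at -0.02 to 0.02, and those of unlike-numbered libraries at -0.04 to 0.03. These correlations cannot show whether the numbers pair the libraries, because both kinds of pair gave values near 0. With 1 library left out, uncalled members changed sign: Slc36a1 ranged from -0.46 to 0.40, Slc43a2 from -0.12 to 0.55 and Slc38a3 from -0.063 to 0.048 (0.022 without mutant library 2). For Slc36a1 the positive values were 0.26, 0.23 and 0.40 when control library 2 or 3 or mutant library 2 was left out. The cause was not tested. Depth limits genes under 1 CPM, where a few read pairs decide the value.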

Other observations

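Of the metabolism list, 5 called genes that fell included 4 not named above, and 6 that rose included 3. All 7 were picked after their values were seen. Maoa, which degrades serotonin and noradrenaline, fell from 408.7 ± 3.5 to 278.2 ± 11.2 CPM (SD, n = 3), a log2 fold change of -0.55 ± 0.037 (SE, adjusted p = 8.72e-05 by edgeR's quasi-likelihood test). Nos3, which makes nitric oxide from arginine in endothelium, fell from 548.3 ± 11.8 to 418.1 ± 21.01 CPM (adjusted p = 0.000852), and Gatm, which makes the creatine precursor, from 254.0 ± 0.87 to 199.0 ± 5.4 CPM (adjusted p = 0.000405). Glud1, glutamate dehydrogenase, rose from 265.8 ± 3.6 to 298.7 ± 4.1 CPM (adjusted p = 0.0088). Maoa, Nos3, Gatm and Glud1 were called under all 14 alternatives. Maob fell by 0.49 ± 0.103 (adjusted p = 0.0181), which became 0.0718, 0.0525 and 0.0642 when control library 1 or 3 or mutant library 2 was left out. Got1, a transaminase of aspartate, and Gcsh, of the glycine cleavage system, rose by 0.27 ± 0.071 and 0.26 ± 0.065 (adjusted p = 0.0479 and 0.0334). Got1 lost its call whichever library was left out (adjusted p = 0.0574 to 0.131), and Gcsh when any 1 library other than control library 3 was left out (adjusted p = 0.0748 to 0.105).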
